A study of Mus musculus with 12 samples.

Results

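The genes described are Spp1, Sparc, Thbs1, Thbs2, Tnc, Postn and Fn1, which encode 6 matricellular proteins and fibronectin. They are all 7 genes of this list, each found once by its symbol among the 39179 genes of the count table, of which 20802 had no count in any library. Their RNA was measured in mouse pancreatic stellate cells (PSCs) of the C57BL/6 strain, the fibroblast-like cells of the pancreas, grown alone (mono-PSCs), with pancreatic cancer cells (PCCs; 2W-PSCs) or with PCCs and macrophages (MØs; 3W-PSCs). Each culture gave 4 libraries, taken after 72 h.

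The PSCs of every culture were 1 SV40-immortalised clone that carried mCherry, so all libraries share that clone, the viral immortalisation and the label. The PCCs were a mouse pancreatic cancer line that carried EGFP. The MØs were the mouse leukaemia-derived macrophage line RAW264.7 with TagBFP. All flasks held minimal medium and the same total number of cells, so that flasks with partner cells held fewer PSCs at the start, and the partner and the number of PSCs cannot be told apart. PSCs were sorted on mCherry, with EGFP-positive and TagBFP-positive cells left out. The sources used here do not say whether the 4 flasks of a culture came from separate experiments, and p-values measure the spread between these libraries only.

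Matricellular proteins are secreted into the extracellular matrix but do little to build it. They bind integrins and other receptors, growth factors and matrix fibres, and most are low in resting adult tissue and high in wounds, fibrosis and the stroma of tumours. Fibronectin, by contrast, is a fibre-forming glycoprotein on which collagens, latent TGF-β complexes and several matricellular proteins are deposited, and activated stellate cells are a main source of both kinds of protein in pancreatic tumours.

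On GRCm38, with positions from GENCODE M21, Spp1 (ENSMUSG00000029304) lies on the plus strand at chr5:104435118-104441050 and Postn (ENSMUSG00000027750) on the plus strand at chr3:54361109-54391037. Thbs1 (ENSMUSG00000040152) is on the plus strand at chr2:118111876-118127133, and Thbs2 (ENSMUSG00000023885) on the minus strand at chr17:14665500-14694235. Tnc (ENSMUSG00000028364), Sparc (ENSMUSG00000018593) and Fn1 (ENSMUSG00000026193) are on the minus strand at chr4:63959785-64047015, chr11:55394500-55423183 and chr1:71585520-71653200. Spp1 shares 309 exonic bases with Gm42793 on the same strand, which is not among the genes of the count table. Exons of Thbs1 overlap an antisense gene over 208 bases, those of Tnc over 176 bases and those of Fn1 over 292 bases. The strand setting of the counting is not given in the sources used here, but the overlapping genes that were in the table had few counts, at most 2 for 8030451A03Rik beside Tnc and at most 16 for Apol7d beside Fn1.

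The 250 bases before the start were found in the RefSeq promoter table (GRCm38.p6) for 5 of the 7 genes. Shown are those of Spp1, Thbs2 and Postn, the members found there that rose in 3W-PSCs, and that of Tnc, which passed the test in no comparison. Capitals mark TATAAA or CCAAT on either strand, and each run reads towards the gene, from chr5:104434861-104435110 (plus strand), chr17:14694263-14694512 (minus strand), chr3:54360857-54361106 (plus strand) and chr4:64047016-64047265 (minus strand).
Spp1: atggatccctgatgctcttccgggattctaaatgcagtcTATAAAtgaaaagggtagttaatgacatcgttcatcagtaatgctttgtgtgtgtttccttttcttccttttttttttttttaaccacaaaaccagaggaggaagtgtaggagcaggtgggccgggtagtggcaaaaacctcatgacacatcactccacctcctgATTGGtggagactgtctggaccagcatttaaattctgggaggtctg
Thbs2: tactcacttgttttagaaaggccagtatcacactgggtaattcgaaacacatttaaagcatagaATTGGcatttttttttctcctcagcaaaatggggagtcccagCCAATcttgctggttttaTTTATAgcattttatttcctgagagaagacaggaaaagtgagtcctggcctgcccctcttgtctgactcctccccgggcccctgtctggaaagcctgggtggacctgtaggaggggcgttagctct
Postn: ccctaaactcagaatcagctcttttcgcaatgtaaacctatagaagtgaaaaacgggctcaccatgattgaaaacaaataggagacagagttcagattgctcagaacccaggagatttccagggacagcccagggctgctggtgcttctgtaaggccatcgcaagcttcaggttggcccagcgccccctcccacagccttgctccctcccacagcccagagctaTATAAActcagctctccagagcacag
Tnc: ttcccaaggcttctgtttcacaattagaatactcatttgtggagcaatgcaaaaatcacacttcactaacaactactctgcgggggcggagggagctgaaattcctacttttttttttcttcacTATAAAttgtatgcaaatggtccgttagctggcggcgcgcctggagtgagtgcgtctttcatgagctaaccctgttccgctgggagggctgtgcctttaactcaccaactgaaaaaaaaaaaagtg
The window of Postn held a TATA box (TATAAA) 26 to 21 bases before the start. In the windows of Spp1, Thbs2 and Tnc the same letters stood further away, at 211 to 206 bases, 126 to 121 bases (as TTTATA) and 126 to 121 bases. The RefSeq promoter table holds a second start for Spp1, Postn and Tnc, and the start nearest to the GENCODE start is shown. For the second start of Tnc, 79 bases from the GENCODE start, TATAAA stood 205 to 200 bases before it. The search was for these exact letters. The window of this second start also holds tatataag close to its end, a run that such a search does not mark, so a similar run nearer to a start is not excluded. The distances thus hold for the starts shown only. A CCAAT box lay 46 to 42 bases before the start of Spp1, as ATTGG, and at 186 to 182 and 144 to 140 bases in Thbs2. TATAAA occurs in 12.4% and CCAAT in 33.8% of all 32851 windows of this length in the table. Neither TGANTCA (AP-1, in 6.75% of windows), TTCNNNGAA (STAT element, 7.02%) nor GGAATG (TEAD element, 12.6%) stood on either strand of the 4 windows, which says only that these letters are not in these bases.

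Libraries held 5286963 to 8093368 counts in mono-PSCs, 4561817 to 6907711 for 2W-PSCs and 7205488 to 8061367 for 3W-PSCs. The 7 genes took 0.426 to 0.553%, 0.574 to 1.10% and 0.431 to 0.480% of them. 2W replicate 2 stood apart, with Spearman correlations of 0.858 to 0.920 with the other 2W libraries over 11776 genes, whereas every pair of the remaining libraries of a culture gave 0.948 to 0.987, and for genes whose call or size turned on it the value without it is given too. Among markers fixed for the cell types, Col1a1, Col1a2 and Pdgfrb were present in every PSC library, while Lum averaged at most 0.698 CPM and Des, a stellate cell filament, at most 1.68 CPM in any culture. Levels are in CPM, the counts of a gene divided by the scaled total of its library, with TMM scaling over the 12 libraries. The library kit takes about 1 fragment from the 3′ end of each transcript, so levels can be set beside each other without a correction for length.

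Between mono-PSCs and 3W-PSCs, 4 of the 7 genes rose (Spp1, Thbs2, Postn and Fn1), 1 fell (Sparc), and Thbs1 and Tnc did not pass the test. Over all 11551 genes tested, 13.4% were called higher and 13.0% lower, called meaning an adjusted p under 0.05 in edgeR's quasi-likelihood test. The same 4 genes had all 3W libraries above all mono libraries, which held for 13.9% of genes, and Sparc had all below, which held for 12.1%. Between mono-PSCs and 2W-PSCs, 2 members rose (Spp1 and Thbs2) and none fell, where 0.839% of 11199 genes were called higher and 0.152% lower. All 7 fold changes were above 0 there, so that no member was lower at an unadjusted p under 0.05 or by DESeq2 either. Again 4 members had all 2W libraries above all mono libraries, as did 3.23% of genes, and none had all below, as did 2.52%. From 2W-PSCs to 3W-PSCs, Spp1 rose and Sparc fell, where 5.73% of 11513 genes were called higher and 4.95% lower. These 2 were also the members without overlap, Spp1 above (11.6% of genes) and Sparc below (9.72%). The median log2 fold change of the members was 1.10, 1.13 and 0.12 in 2W-PSCs against mono-PSCs, 3W-PSCs against mono-PSCs and 3W-PSCs against 2W-PSCs, beside 0.02, 0.01 and 0.00 over all genes tested. Without 2W replicate 2, 4 members (Spp1, Thbs2, Postn and Fn1) passed in 2W-PSCs against mono-PSCs and 3 (Spp1, Sparc and Postn) in 3W-PSCs against 2W-PSCs. The comparisons share libraries and are not independent of each other.

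**Figure D1:**
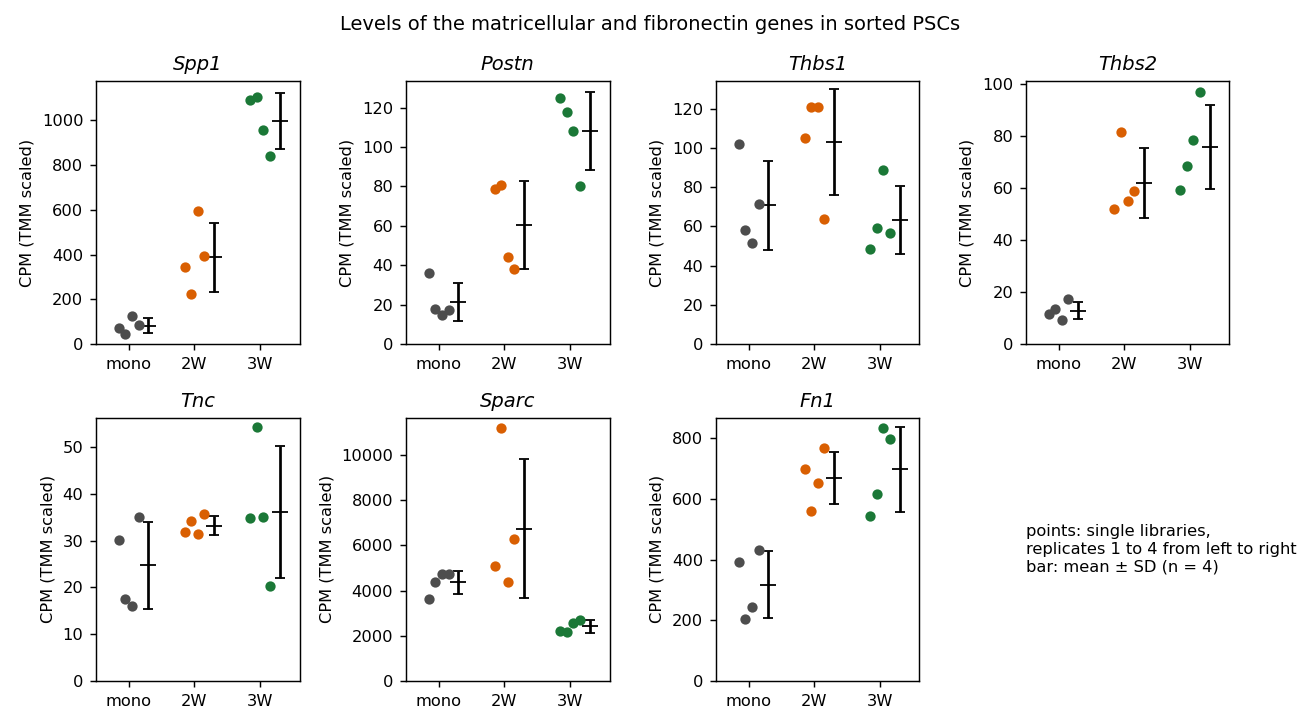
CPM (TMM scaled, linear axis from 0) of the 7 genes in each library of mono-PSCs, 2W-PSCs and 3W-PSCs. Points are single libraries and bars are mean ± SD (n = 4). Spp1 stood in 3 separate ranges, every co-culture library of Thbs2, Postn and Fn1 lay above the mono libraries, and Sparc was lowest in the 4 libraries of 3W-PSCs.

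Spp1 encodes osteopontin, a secreted phosphoprotein that binds αv integrins and CD44 and attracts macrophages. Its level was 72.0, 47.2, 125 and 84.3 CPM in mono-PSCs, 346, 223, 593 and 393 CPM for 2W-PSCs and 1090, 1104, 959 and 839 CPM for 3W-PSCs. The ranges of the 3 cultures did not overlap, and the lowest 3W library stood above the highest 2W library. From mono-PSCs (82.2 ± 32.7 CPM, SD, n = 4) it rose 4.81-fold in 2W-PSCs (log2 fold change 2.26, SE 0.342, adjusted p = 0.00601) and 12.1-fold in 3W-PSCs (3.6, SE 0.244, adjusted p = 1.2e-08). The step from 2W-PSCs (389 ± 154 CPM) to 3W-PSCs (998 ± 124 CPM) was 2.56-fold (log2 fold change 1.36, SE 0.264, adjusted p = 0.00871). Without 2W replicate 2, which had the lowest Spp1 of its culture, that step was 1.16 on the log2 scale with an adjusted p of 0.000605, and the rise in 2W-PSCs over mono-PSCs was 2.44 with an adjusted p of 0.000102. Among all genes, Spp1 moved from rank 2207 by mean level in mono-PSCs to rank 324 in 2W-PSCs and rank 65 in 3W-PSCs. These are sorted cells pooled before lysis, so more cells with a transcript and more RNA per cell cannot be told apart, here and for every gene below.

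Macrophages make Spp1, and markers of the partner cells also differed between the cultures. The summed level of 17 macrophage markers was 2.26 to 8.33 CPM in mono-PSCs, 3.78 to 10.8 CPM for 2W-PSCs and 21, 14.3, 25.2 and 71.2 CPM for 3W-PSCs, with 10, 9 and 1 of the markers at 0 throughout a culture. Emr1, which encodes F4/80, had no count in any library, and Ptprc (CD45) had none in mono-PSCs or 2W-PSCs and 0 to 2.59 CPM in 3W-PSCs. Csf1r averaged 2.31 CPM in 3W-PSCs, with 2.35 CPM for 2W-PSCs, and Lyz2 averaged 5.19 CPM in 3W-PSCs. Mpeg1 averaged 0.335, 0.469 and 6.98 CPM, Lcp1 0, 0.114 and 4.14 CPM and Laptm5 0, 0 and 2.69 CPM in the mono, 2W and 3W libraries. Of the 4 markers that passed the filter on low counts, Csf1r and Mpeg1 rose in 3W-PSCs over mono-PSCs (adjusted p = 0.000861 and 4.19e-05). Mpeg1 rose in 3W-PSCs over 2W-PSCs too (adjusted p = 0.00499). Csf1r had at most 2 counts in a mono library, and Mpeg1 at most 5 there and 8 in a 2W library. In these comparisons both passed the filter through 3W-PSCs, so these calls only describe them. 3W replicate 4, with the highest macrophage sum of 71.2 CPM, had the lowest Spp1 of the 3W libraries, and without it the rise of Spp1 over mono-PSCs was 3.67 on the log2 scale and that over 2W-PSCs 1.43 (adjusted p = 3.07e-08 and 0.0210). The part of macrophage RNA in the level of Spp1 was not tested.

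Of 14 epithelial markers, Sox9 was also high in mono-PSCs (103 CPM), and the other 13, summed, read 1.32 to 3.30 CPM in mono-PSCs, 74.8 to 145 CPM for 2W-PSCs and 52.8 to 90.3 CPM for 3W-PSCs. Leaving out Sox9 was chosen after its values were seen. Cdh1 (E-cadherin) averaged 0.585, 18.4 and 12 CPM and Krt19 0.459, 17.4 and 13.7 CPM in mono-PSCs, 2W-PSCs and 3W-PSCs, whereas Epcam stayed at or below 0.382 CPM. The sum was higher in both co-cultures, beside the rise of Spp1, Thbs2, Postn and Fn1 over mono-PSCs, and its part in that rise was not tested. In edgeR 5 of the 6 epithelial markers tested rose in 2W-PSCs and 6 of 7 in 3W-PSCs. Krt7, Krt8, Krt18, Krt19 and Cdh1 were near 0 in mono-PSCs and passed the filter on low counts through the co-cultures. Spint1, with at most 6 counts in a mono library and 8 in a 2W library, passed it through 3W-PSCs. These counts therefore only describe the markers. Between the co-cultures the ranges of this sum overlapped, but those of Krt18 (30.6 to 52.9 and 15.3 to 30.1 CPM in 2W and 3W libraries) and Spint1 (0 to 1.12 and 1.69 to 2.42 CPM) did not. As Spint1 passed the filter through 3W-PSCs, its place above 2W-PSCs only describes it. All 3W libraries lay below all 2W libraries, as for Krt18, in 9.72% of genes tested, and above, as for Spint1, in 11.6%. Neither was called in edgeR (adjusted p = 0.12 and 0.107), nor was any other of the 7 epithelial markers tested.

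**Figure D2:**
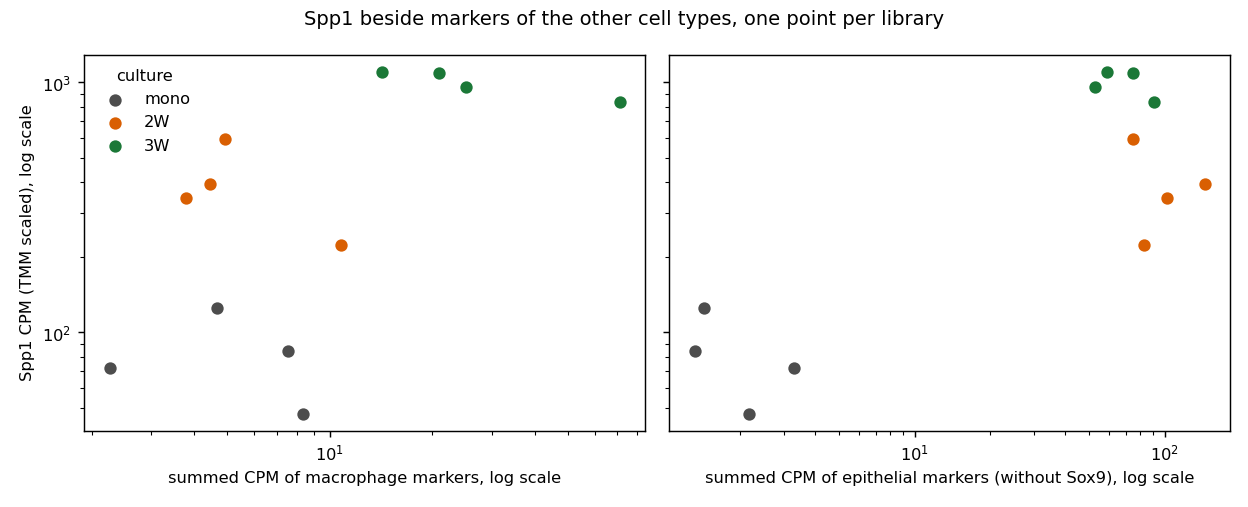
Spp1 (CPM, log scale) against the summed CPM of 17 macrophage markers (left, log scale) and of 13 epithelial markers without Sox9 (right, log scale), 1 point per library. The 3W library with the most macrophage marker RNA (71.2 CPM) has the lowest Spp1 of its culture (839 CPM), and both co-cultures stand far right of mono-PSCs for the epithelial markers.

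The thrombospondins, trimeric or pentameric glycoproteins, were represented by Thbs1 and its close relative Thbs2, whose products bind CD47 and CD36. Thbs1 encodes an activator of latent TGF-β and inhibitor of angiogenesis. The product of Thbs2 also inhibits angiogenesis and helps to clear matrix metalloproteinases. Thbs2 read 11.7, 13.5, 9.36 and 17.3 CPM in mono-PSCs, 52.1, 81.5, 55.1 and 58.9 CPM for 2W-PSCs and 59.4, 68.5, 78.5 and 96.8 CPM for 3W-PSCs. Every co-culture library was far above every mono library, while the co-cultures overlapped each other. Over mono-PSCs (12.9 ± 3.36 CPM) Thbs2 rose 4.83-fold in 2W-PSCs (log2 fold change 2.27, SE 0.253, adjusted p = 0.000577) and 5.78-fold in 3W-PSCs (2.53, SE 0.217, adjusted p = 1.76e-07). Between 3W-PSCs and 2W-PSCs it differed by 0.29 on the log2 scale, with a 95% interval from −0.16 to 0.74 (adjusted p = 0.404). Without 2W replicate 2 the rise in 2W-PSCs over mono-PSCs was 2.10 and the difference between the co-cultures 0.45 (adjusted p = 0.0825).

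Thbs1 behaved otherwise. It read 102, 58.1, 51.3 and 71.5 CPM in mono-PSCs, 105, 121, 121 and 64.0 CPM for 2W-PSCs and 48.6, 59.1, 88.5 and 56.7 CPM for 3W-PSCs. All 3 cultures overlapped and no comparison passed the test. Against mono-PSCs the log2 fold change was 0.55 in 2W-PSCs (95% interval −0.03 to 1.14, adjusted p = 0.724) and −0.17 in 3W-PSCs (−0.64 to 0.30, adjusted p = 0.603), and the latter turned to 0.06 without mono replicate 1. From 2W-PSCs to 3W-PSCs it was −0.70 (−1.24 to −0.16, adjusted p = 0.0955, two-sided exact permutation p = 0.0571), and without 2W replicate 4 it was −0.88 with an adjusted p of 0.0494. Set against each other within a library, Thbs2 was below Thbs1 by 3.10 to 2.03 on the log2 scale in mono-PSCs, where the log2 ratio of Thbs2 to Thbs1 ran from −3.10 to −2.03. That ratio ran from −1.13 to −0.12 in 2W-PSCs and from −0.17 to 0.77 in 3W-PSCs.

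Postn encodes periostin, a secreted fasciclin-domain protein that binds αv integrins, collagen and fibronectin and aids collagen cross-linking. It read 36, 18, 14.8 and 17.2 CPM in mono-PSCs, 78.5, 81.0, 44.0 and 38.2 CPM for 2W-PSCs and 125, 118, 108 and 80.4 CPM for 3W-PSCs. All co-culture libraries lay above all mono libraries, and the co-cultures overlapped only where the lowest 3W library (80.4 CPM) met the highest 2W library (81.0 CPM). Postn rose 5-fold in 3W-PSCs over mono-PSCs (log2 fold change 2.32, SE 0.249, adjusted p = 2.41e-06). In 2W-PSCs the log2 fold change was 1.51 (SE 0.340) with an adjusted p of 0.0621, just short of the threshold. It passed at 0.0372 without 2W replicate 2 and at 0.0238 without mono replicate 1, the mono library with the most Postn. Of 17 alternative fits 6 called it, among them DESeq2 (adjusted p = 0.0021) and edgeR with the replicate number as a block (0.0126). The difference of 3W-PSCs from 2W-PSCs was 0.84 (SE 0.263, adjusted p = 0.0654), or 1.01 with an adjusted p of 0.00628 without 2W replicate 2. Here 5 of 17 alternative fits called it, among them the one with the block (adjusted p = 0.0322).

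Tnc encodes tenascin-C, a hexameric protein of wounds and tumour stroma that loosens the adhesion of cells to fibronectin. Its level was 30.1, 17.6, 16 and 35 CPM in mono-PSCs, 31.8, 34.1, 31.3 and 35.6 CPM for 2W-PSCs and 34.8, 54.3, 35 and 20.2 CPM for 3W-PSCs. The cultures overlapped, with the widest spread in 3W-PSCs, where the highest library held 2.69 times the level of the lowest. The log2 fold change was 0.44 in 2W-PSCs over mono-PSCs (95% interval −0.15 to 1.03, adjusted p = 0.887), 0.53 in 3W-PSCs over mono-PSCs (−0.07 to 1.14, adjusted p = 0.184) and 0.12 in 3W-PSCs over 2W-PSCs (−0.45 to 0.69, adjusted p = 0.813). With no filter on low counts the second of these passed at an adjusted p of 0.0483, and without 3W replicate 2 the third turned to −0.15.

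Sparc encodes osteonectin, a collagen-binding protein that helps procollagen to be processed and laid down. It was the most abundant of the 7 genes in every library, at 3647, 4382, 4753 and 4723 CPM in mono-PSCs, 5087, 11208, 4367 and 6287 CPM for 2W-PSCs and 2223, 2150, 2571 and 2709 CPM for 3W-PSCs. The 3W libraries all lay below every other library, and 2W replicate 2 stood alone at 11208 CPM. Sparc fell in 3W-PSCs against mono-PSCs (log2 fold change −0.86, SE 0.165, adjusted p = 0.000898) and against 2W-PSCs (−1.48, SE 0.284, adjusted p = 0.00791). Without 2W replicate 2 the latter was −1.13 with an adjusted p of 0.000179. Between 2W-PSCs and mono-PSCs it differed by 0.65 on the log2 scale (95% interval 0.01 to 1.29, adjusted p = 0.658), which became 0.27 without that library (adjusted p = 0.799). Its rank by mean level was 10, 5 and 21 in mono-PSCs, 2W-PSCs and 3W-PSCs. The summed level of 13 fibroblast markers was 5947 to 7087 CPM in 3W-PSCs, 8436 to 10633 CPM in mono-PSCs and 9566 to 10538 CPM for 2W-PSCs. The single markers moved both ways. Against mono-PSCs, of 12 tested, 3 fell in 3W-PSCs (S100a4, Col3a1 and Thy1), 2 rose (Pdgfra and Pdpn) and 7 were not called. Over all genes tested there, 13.0% were called lower and 13.4% higher. S100a4 went from 2216 ± 867 to 449.8 ± 50.5 CPM. Against 2W-PSCs, 5 of 11 fell, 2 rose and 4 were not called, beside 4.95% called lower and 5.73% higher over all genes tested. The part of these changes in the fall of Sparc was not tested.

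Fn1 encodes fibronectin, the ligand of the integrin α5β1. It read 391, 204, 243 and 431 CPM in mono-PSCs, 698, 561, 654 and 767 CPM for 2W-PSCs and 545, 615, 834 and 796 CPM for 3W-PSCs. Every co-culture library lay above every mono library, and the co-cultures overlapped. Fn1 rose 2.19-fold in 3W-PSCs over mono-PSCs (log2 fold change 1.13, SE 0.226, adjusted p = 0.00128). In 2W-PSCs the change over mono-PSCs was of nearly the same size, 1.10 (SE 0.258), with an adjusted p of 0.0782, or 1.16 with an adjusted p of 0.0148 without 2W replicate 2. Of 17 alternative fits 5 called this change, among them DESeq2 (adjusted p = 0.00328) and edgeR with the replicate number as a block (0.0194). The co-cultures differed by 0.06 (95% interval −0.35 to 0.47, adjusted p = 0.884), and the sign of this small difference turned when any of 3 libraries was left out.

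**Figure D3:**
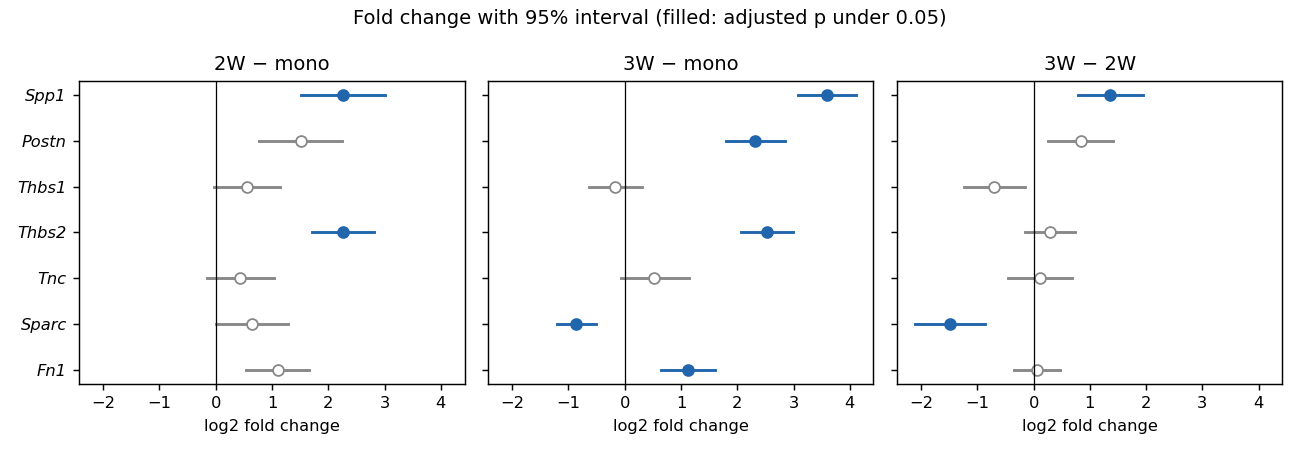
Log2 fold change of each gene with its 95% interval in edgeR's quasi-likelihood fits of 2W-PSCs against mono-PSCs, 3W-PSCs against mono-PSCs and 3W-PSCs against 2W-PSCs, with filled points for an adjusted p under 0.05. Spp1 is filled and above 0 in all 3 panels, Sparc is filled and below 0 in both panels with 3W-PSCs, and Thbs1 and Tnc are filled in none.

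The order of levels within a culture changed accordingly. In mono-PSCs the mean levels ran Sparc, Fn1, Spp1, Thbs1, Tnc, Postn and Thbs2, and the libraries of the neighbours Spp1 and Thbs1 overlapped (82.2 ± 32.7 and 70.8 ± 22.7 CPM), as did those of Tnc and Postn (24.7 ± 9.31 and 21.5 ± 9.76 CPM) and of Postn and Thbs2. In 2W-PSCs the order was Sparc, Fn1, Spp1, Thbs1, Thbs2, Postn and Tnc, where Fn1 overlapped Spp1, and Thbs2 (61.9 ± 13.4 CPM) overlapped both Thbs1 (103 ± 26.8 CPM) and Postn (60.4 ± 22.5 CPM). In 3W-PSCs it was Sparc, Spp1, Fn1, Postn, Thbs2, Thbs1 and Tnc, with overlap from Postn down between each gene and the next (108 ± 19.7, 75.8 ± 16.0, 63.2 ± 17.5 and 36.1 ± 14.0 CPM). Fn1 and Spp1 thus stood in the opposite order in 3W-PSCs, without overlap. Summed over all 7 genes the level was 4290 to 5379 CPM in mono-PSCs, 5865 to 12309 CPM for 2W-PSCs and 4126 to 4674 CPM for 3W-PSCs, a sum in which Sparc outweighs the rest and which reached 7644 CPM in 2W-PSCs without 2W replicate 2. The other 6 genes together held 359 to 656 CPM in mono-PSCs, 1102 to 1498 CPM for 2W-PSCs and 1889 to 2103 CPM for 3W-PSCs. These ranges did not overlap, but the sum leaves out Sparc, the member that fell. Its step between the co-cultures came mostly from Spp1 (means of 389 and 998 CPM), the only one of the 6 called there. Fn1 hardly differed (670 and 697 CPM), Postn was higher (60.4 and 108 CPM) and Thbs1 lower (103 and 63.2 CPM).

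For each member the pair of genes with the most similar pattern was sought by Pearson correlation of log2 CPM over the 12 libraries among 8693 genes. The libraries share their culture, so these values describe likeness only. Spp1 was most like Tnfrsf1b, a TNF receptor gene (r = 0.965, with 20.8, 48.8 and 75.2 CPM in mono-PSCs, 2W-PSCs and 3W-PSCs), and Mnda (0.962). Postn was most like the transcription factor gene Runx1 (0.969, with 29.8, 67.8 and 144 CPM) and Smpd4 (0.956). Thbs2 was most like Ltbp3, which encodes a binding protein of latent TGF-β (0.958, with 57.9, 129 and 142 CPM), and Por (0.951), and Fn1 most like the receptor genes Egfr (0.940, with 6.49, 19.4 and 18.6 CPM) and Notch3 (0.934). Sparc was most like Cd248, the gene of the stromal surface protein endosialin (0.980, with 57.6, 102 and 32.1 CPM), and Shoc2 (0.962). For Thbs1 and Tnc, which passed the test in no comparison, the highest values were lower, with Mkrn2 (0.867) and Dnajb4 (0.784) for Thbs1 and Frmd6 (0.801) and Mbd5 (0.796) for Tnc.

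Genes of receptors for these proteins were also called in 3W-PSCs. In 3W-PSCs against mono-PSCs 13 of 18 receptor genes were tested, and 8 rose and none fell in edgeR, at a median log2 fold change of 1.04, while 1 was lower at an unadjusted p under 0.05 and none by DESeq2. Over all genes tested, 13.4% were called higher and 13.0% lower there, and 13.9% had all 3W libraries above all mono libraries. Cd44, a receptor of osteopontin, read 127, 53.9, 102 and 85.5 CPM in mono-PSCs and 320, 373, 335 and 282 CPM in 3W-PSCs, without overlap (log2 fold change 1.82, SE 0.212, adjusted p = 5.98e-06). It rose over 2W-PSCs too (1.58, SE 0.326, adjusted p = 0.0118). Itga5, the α5 chain of the fibronectin receptor, was low throughout but rose from 3.58 ± 1.90 to 9.25 ± 2.62 CPM (1.33, SE 0.392, adjusted p = 0.0176). Stab1, a scavenger receptor gene that binds SPARC protein, had at most 2 counts in a mono library and 6.55 ± 1.84 CPM in 3W-PSCs, at least 13-fold higher against a floor of 3 counts per library.

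Against mono-PSCs, Itgb5 alone of the 10 receptor genes tested rose in 2W-PSCs in edgeR (4 at an unadjusted p under 0.05 and 2 by DESeq2), from 88.8 ± 8.78 to 166 ± 20.9 CPM (log2 fold change 0.93, SE 0.182, adjusted p = 0.0298). Its product pairs with αv to bind osteopontin and periostin. In 3W-PSCs against 2W-PSCs 4 of 13 receptor genes rose and 1 fell, the latter Itgb3 (from 9.95 ± 5.97 to 1.80 ± 1.27 CPM, log2 fold change −2.44, SE 0.546, adjusted p = 0.0166). Itgb3 was highest in 2W replicate 2 (18.7 CPM), without which its change was −1.96 (adjusted p = 0.0109). It read 0.763 to 3.63 CPM in 3W-PSCs and passed the filter on low counts through 2W-PSCs here, so this fall only describes it. Stab1, with at most 1 count in a 2W library, was at least 12.4-fold higher in 3W-PSCs. Macrophages also express Stab1 and Cd44, and the macrophage marker sums given above were likewise higher in 3W-PSCs than in the other cultures. Within 3W-PSCs, replicate 2, with the lowest sum (14.3 CPM), had the most Stab1 (9.17 CPM) and Cd44 (373 CPM). The part of macrophage RNA in their levels was not tested. In this list and the 3 that follow, the genes tested are those that passed the filter on low counts. Some of them (Stab1, Itgb3, Wisp2, Sparcl1, Mmp3 and Mmp10) passed it through the culture where they were high. The counts and medians of the lists therefore describe the genes tested only. Over all genes tested, 0.839%, 13.4% and 5.73% were called higher in 2W-PSCs against mono-PSCs, 3W-PSCs against mono-PSCs and 3W-PSCs against 2W-PSCs. In the same order, 0.152%, 13.0% and 4.95% were called lower.

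Of 23 other matricellular genes in the table, 7, 7 and 8 were tested in 2W-PSCs against mono-PSCs, 3W-PSCs against mono-PSCs and 3W-PSCs against 2W-PSCs, and median log2 fold changes were 0.55, 0.57 and −0.27. None passed in the first comparison in edgeR, where 1 was higher and 1 lower both at an unadjusted p under 0.05 and by DESeq2. In the second, Ctgf, a CCN-family matrix signalling gene, rose from 149, 12.1, 32 and 16.9 CPM for mono-PSCs to 303, 317, 187 and 141 CPM in 3W-PSCs (log2 fold change 2.16, SE 0.548, adjusted p = 0.00719), although mono replicate 1 overlapped the 3W range. Its relative Nov fell from 39.0 ± 2.18 to 7.69 ± 2.04 CPM (−2.35, SE 0.222, adjusted p = 5.45e-07), and Wisp2, with at most 2 counts in a mono library, reached 6.17 ± 0.688 CPM, at least 12.2-fold higher. In 3W-PSCs against 2W-PSCs, Sparcl1, the nearest relative of Sparc, fell from 5.31 ± 3.59 to 0.458 ± 0.384 CPM (−3.49, SE 0.789, adjusted p = 0.0165, or −3.04 without 2W replicate 2). Sparcl1 had at most 7 counts in a 3W library and passed the filter through 2W-PSCs, so this fall only describes it. Fstl1, also of the SPARC family, fell in the same comparison from 1540 ± 206 to 873 ± 72.1 CPM (−0.82, SE 0.166, adjusted p = 0.0105). Wisp2 rose (2.10, SE 0.362, adjusted p = 0.00480), and the fourth gene called, Wisp1, fell by 0.59 on the log2 scale.

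Genes whose products lie with fibronectin in the matrix moved both ways. Of 14 tested of 15 in the table, none passed in edgeR in 2W-PSCs against mono-PSCs (median log2 fold change 0.58, 8 higher at an unadjusted p under 0.05 and 5 by DESeq2), 4 rose and 1 fell in 3W-PSCs against mono-PSCs (0.21), and 2 rose and 4 fell in 3W-PSCs against 2W-PSCs (−0.31). Vcan, the proteoglycan versican, rose from 13.1 ± 4.05 CPM in mono-PSCs and 30.2 ± 6.20 CPM for 2W-PSCs to 65.5 ± 5.08 CPM for 3W-PSCs (log2 fold change 2.30 and 1.12, adjusted p = 5.69e-07 and 0.00413). Ltbp1, which tethers latent TGF-β to fibronectin, rose from 34 ± 8.73 and 71.5 ± 15.6 CPM to 146 ± 11.7 CPM (2.09 and 1.03, adjusted p = 2.7e-07 and 0.00512). Col3a1, a fibrillar collagen, fell from 524 ± 117 and 454 ± 117 CPM to 136 ± 5.93 CPM (−1.95 and −1.74, adjusted p = 3.04e-07 and 0.000538), in the same direction as Sparc.

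Among proteases that cut these proteins, 10, 11 and 11 of 15 were tested. Mmp3, stromelysin-1, which cleaves osteopontin, fibronectin and SPARC, had at most 3 counts in a mono library and read 3.64, 6.14, 5.56 and 8.31 CPM in 2W-PSCs, at least 11.7-fold higher. It read 112, 128, 31.2 and 35.7 CPM in 3W-PSCs, at least 152-fold higher than in mono-PSCs. It also rose from 2W-PSCs to 3W-PSCs (log2 fold change 3.70, SE 0.502, adjusted p = 0.00115). Mmp10, its close relative, had at most 2 counts in a mono library and 20.7 ± 12.8 CPM in 3W-PSCs, at least 41.1-fold higher, and rose over 2W-PSCs (4.01, SE 0.580, adjusted p = 0.00170). Adamts1, which cuts versican and both thrombospondins, fell from 668 ± 116 CPM in mono-PSCs and 363 ± 131 CPM for 2W-PSCs to 103 ± 33.2 CPM for 3W-PSCs (−2.70 and −1.82, adjusted p = 1.04e-07 and 0.00517). Of the protease genes tested 1, 4 and 3 rose and 0, 2 and 1 fell in the 3 comparisons, with medians of 0.14, 0.32 and 0.20, counts in which the rises of Mmp3 and Mmp10 over mono-PSCs were set by the filter.

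**Figure D4:**
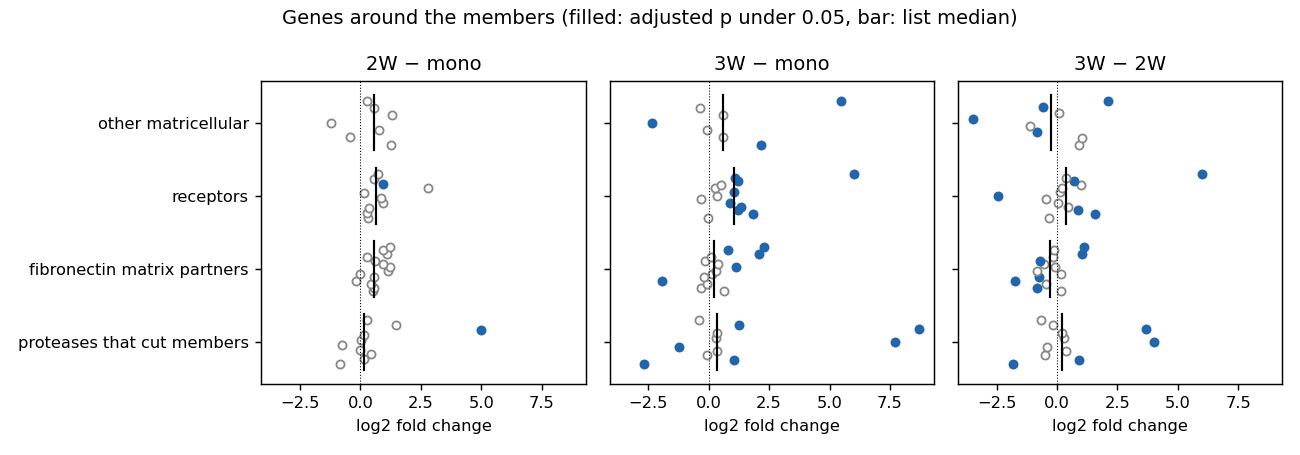
Log2 fold change as fitted by edgeR of each tested gene of 4 lists around the members in the 3 comparisons, with filled points for an adjusted p under 0.05 and a bar at the list's median. In the comparisons with mono-PSCs the far right points (Stab1, Wisp2, Mmp3 and Mmp10) had at most 3 counts in each mono library, so their place rests on the prior count. Of these genes this holds only for Stab1 in 3W-PSCs against 2W-PSCs, with at most 1 count in a 2W library. The filled receptor genes lie above 0 in 3W-PSCs against mono-PSCs.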

How the data were processed

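Counts of RNA were analysed for 12 libraries of sorted PSCs, 4 per culture. The authors made QuantSeq 3′ FWD libraries, sequenced single ends of 75 bases, aligned the reads with STAR to GRCm38 and counted genes of the Ensembl annotation with featureCounts, and the deposited values are raw counts in whole numbers. Molecular identifiers are not named in the sources used here, so counts may include PCR copies and statements on depth cover counting error only.

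Pairs of cultures were compared with edgeR 4.0.16 under R 4.3.3 (TMM, filterByExpr, glmQLFit and glmQLFTest, prior count 0.125), each fit holding the 8 libraries compared, with no block and Benjamini-Hochberg adjustment over all genes tested. Single levels were compared by an exact permutation test, two-sided, whose smallest p is 0.0286 here. A fold against libraries of at most 3 counts is a lower bound against 3 counts per library. Total counts were 4561817 to 8093368 per library. In counts simulated at these depths, edgeR called 86.0%, 94.9% and 93.9% of 4-fold changes and 21.2%, 67.3% and 27.0% of 2-fold changes in 2W-PSCs against mono-PSCs, 3W-PSCs against mono-PSCs and 3W-PSCs against 2W-PSCs (10989, 11419 and 11356 genes), so a gene not called is not shown to be unchanged. Of the calls on simulated counts 5.31%, 7.56% and 8.40% were false, at a threshold of 5%.

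The members, the lists of other genes and the tests were chosen with earlier results of these data known. Named besides the members were, for each, the 2 genes with the highest correlation among those with a mean log2 CPM above 3 (prior count 2), and from each list up to 3 called genes per comparison with the largest change. Promoter sequences are those of RefSeq. Alternatives were DESeq2 1.42.0 and its size factors, no filter, a minimum of 10 counts, all 12 libraries in one fit, the replicate block, a prior count of 2, glmTreat at a log2 fold change of 1, removal of Gm26924 and mitochondrial rRNA genes, and each library left out. DESeq2 was also named among the tools of the authors.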

Additional observations from a re-analysis of the deposited data

Results flagged for a closer look

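Postn in mono replicate 1, at 36 CPM, lay far from the other mono libraries (14.8 to 18.0 CPM), its gap to the nearest being 0.846 of the range of the 4 libraries, more than Dixon's 95% critical value for 4 libraries. It was the only one of 21 sets of 4 libraries (7 genes in 3 cultures) beyond that value, and chance alone puts about 1 in 20 there. Without this library the log2 fold change of Postn over mono-PSCs was 1.86 in 2W-PSCs.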

How the results depend on the processing

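Against mono-PSCs, 111 genes were called in 2W-PSCs, and 177 with no filter, 57 with at least 10 counts in every library, 262 with all 12 libraries in one fit, 275 by DESeq2, 41 by glmTreat and 61 to 233 with a library left out, the highest without 2W replicate 2 and 61 to 64 without 2W replicate 1, 2W replicate 4, mono replicate 3 or mono replicate 4. The 2 members called there became 4, with Postn and Fn1 added, under no filter, all 12 libraries and DESeq2, 1 under glmTreat and 2 to 4 with a library left out. In 3W-PSCs against mono-PSCs, glmTreat called 487 genes and 3 members. In 3W-PSCs against 2W-PSCs it called 132 genes and 0 members, and leaving out a library gave 497 (without 3W replicate 2) to 2107 genes (without 2W replicate 2) in place of 1230, with 550 to 750 without 3W replicate 1, 3W replicate 3, 3W replicate 4 or 2W replicate 4. With a library left out, the log2 fold change of Thbs1 in 3W-PSCs over mono-PSCs ran from −0.38 to 0.06, that of Tnc in 3W-PSCs over 2W-PSCs from −0.15 to 0.32 and that of Fn1 from −0.04 to 0.16 (−0.02, −0.04 and −0.01 without 2W replicate 2, 3W replicate 3 and 3W replicate 4). The cause was not tested. Of the fold changes of members under single alternatives, 329 kept their direction and side of the threshold, 18 passed it newly, 5 lost it (all under glmTreat) and 5 changed sign.

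Libraries with the same replicate number deviated together in part for 2W-PSCs and mono-PSCs, with correlations of 0.099 to 0.338. The correlations were 0.003 to 0.107 for 3W-PSCs and mono-PSCs and −0.048 to 0.155 for the co-cultures. In these 3 comparisons 6, 4 and 3 of 8 libraries correlated best with their own number. With the replicate block 135, 3092 and 752 genes were called, and 4, 5 and 3 members, Postn and Fn1 being added in the first comparison and Postn in the third. Fits of the genes called in the 4 lists of other genes without 2W replicate 2 were chosen after seeing the data, and all 21 calls of them that involve 2W-PSCs held in them.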
